A study of Mus musculus with 8 samples.

Results

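Genes of the proteasome subunits are described here in mouse CD11b+Gr-1+ myeloid cells, the immature cells often called myeloid-derived suppressor cells. A gene was included when its symbol is Psma, Psmb, Psmc or Psmd followed by a number and at least 1 probe set is annotated to it alone; Psmb8 and Psmb9 were left out. This gave 37 genes of the 18194 that have such a probe set. By role, 8 encode the alpha ring of the core, 9 its beta ring, 6 the ATPases of the regulatory particle, 11 its other subunits and 3 the chaperones that assemble its base. The group is not purely constitutive: Psmb10 is an immune-type catalytic subunit, and Psmb11 belongs to the thymus. Where a gene had several such probe sets, the one whose mean across the 8 arrays was highest stood for it.

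The study asked how loss of histidine decarboxylase, the enzyme that makes histamine, changes these cells in bone marrow and in colon tumors. Every mouse was C57BL/6J and carried the HDC-EGFP transgene, a reporter of Hdc expression, in wild-type and knockout groups alike. The marrow groups, HDC-EGFP (wild-type) and HDC-EGFP/HDC-KO, were HDC-expressing CD11b+Gr-1+ cells of 3 mice each, aged 3 to 4 months. The tumor groups, of the same 2 genotypes, were CD11b+Gr-1+ cells from mice aged 7 months, 5 mice per group, that had received 1 dose of azoxymethane, a colon carcinogen, and 10 days of dextran sodium sulfate, which inflames the colon; 10 to 12 tumors per group were pooled 22 to 24 weeks later, and no reporter gate is named for them. Each group is 1 RNA pool hybridised to 2 technical arrays, so every p-value below compares pools against the spread between arrays of the same RNA and not against the spread between mice. Marrow and tumor also differ in age, carcinogen, colitis and gate, which cannot be told apart from tissue.

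The proteasome degrades proteins tagged with ubiquitin. Its core is a barrel of alpha rings, which gate the entrance, and beta rings, which hold the catalytic sites inside; a regulatory particle at the end binds ubiquitin, removes it and threads the protein in with a ring of ATPases. In immune cells, and after interferon, the catalytic subunits Psmb6, Psmb7 and Psmb5 can be replaced by Psmb9, Psmb10 and Psmb8, giving the immunoproteasome, which favours peptides suited to antigen presentation. Cells that need more proteasomes are known to raise most subunit genes together through the transcription factor Nfe2l1, which binds antioxidant response elements with small Maf proteins.

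Hdc, the targeted gene, read 13.14 and 13.21 (log2 intensity) on the wild-type marrow arrays and 9.79 and 9.87 on the HDC-KO marrow arrays, a 10.2-fold lower level. On the tumor arrays it read 13.25 and 13.23 in wild type and 13.02 and 13.03 in the pool labelled HDC-KO. The gene thus followed the label in marrow but was near the wild-type level in the tumor pool labelled HDC-KO. Directions drawn from that pool therefore rest on its label. Another Hdc probe set had pool means of 12.07 in wild-type and 7.47 in HDC-KO marrow. In tumor it had 12.18 in wild type and 11.98 in the pool labelled HDC-KO. Both probe sets thus registered the knockout in marrow, though the sources used here do not give which part of the gene they read. Of 8 granulocyte and monocyte markers of the sorted cells, 5 had a probe set annotated to them alone, while Ly6g, Ly6c1 and Ly6c2 had none. These 5 were above log2 5 in all pools. Their summed level (log2 of the summed linear values) lay between 16.35 and 16.41 on all 8 arrays. S100a8 and S100a9, at 15.12 to 15.18 in every pool, made up most of that sum. Single markers moved between HDC-KO marrow and the tumor pool of that label. Itgam went from 12.4 to 11.3, Csf3r from 12.3 to 13.1 and Cxcr2 from 11.8 to 11.6. Arrays of the same pool correlated at 0.995 to 0.998 over the 8174 genes tested, each read from 1 probe set.

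Proteasome subunit genes differed little between the 4 pools. After a filter that asked for at least 2 arrays at log2 5 or above, 35 of the 37 were tested among 8174 genes, and each of the 35 exceeded log2 5 on every array; Psma8, a testis form, and Psmb11 stayed below it in every pool. Pool means of the 35 genes spanned a median of 0.42 on the log2 scale, against 0.86 for all genes tested. The span reached 1 in 2 of them (5.71%), Psmb10 and Psmd13, against 43.6% of all genes. Mean level bears on this: among genes averaging log2 10 or more, 23.4% spanned at least 1, and 0 of the 21 subunit genes in that class did. The median span in that class was 0.41 for subunit genes and 0.55 for all genes, a narrower gap. From log2 8 to 10 it was 0.28 (9 subunit genes) and 0.73. From log2 5 to 8 it was 0.59 (5 subunit genes) and 1.05. Pool means of 21 of the 35 subunit genes lay within 0.5 of each other. The matching share over all genes was not counted, so this number is description only. In bulk RNA, fewer cells of a type and less RNA per cell cannot be told apart.

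**Figure D1:**
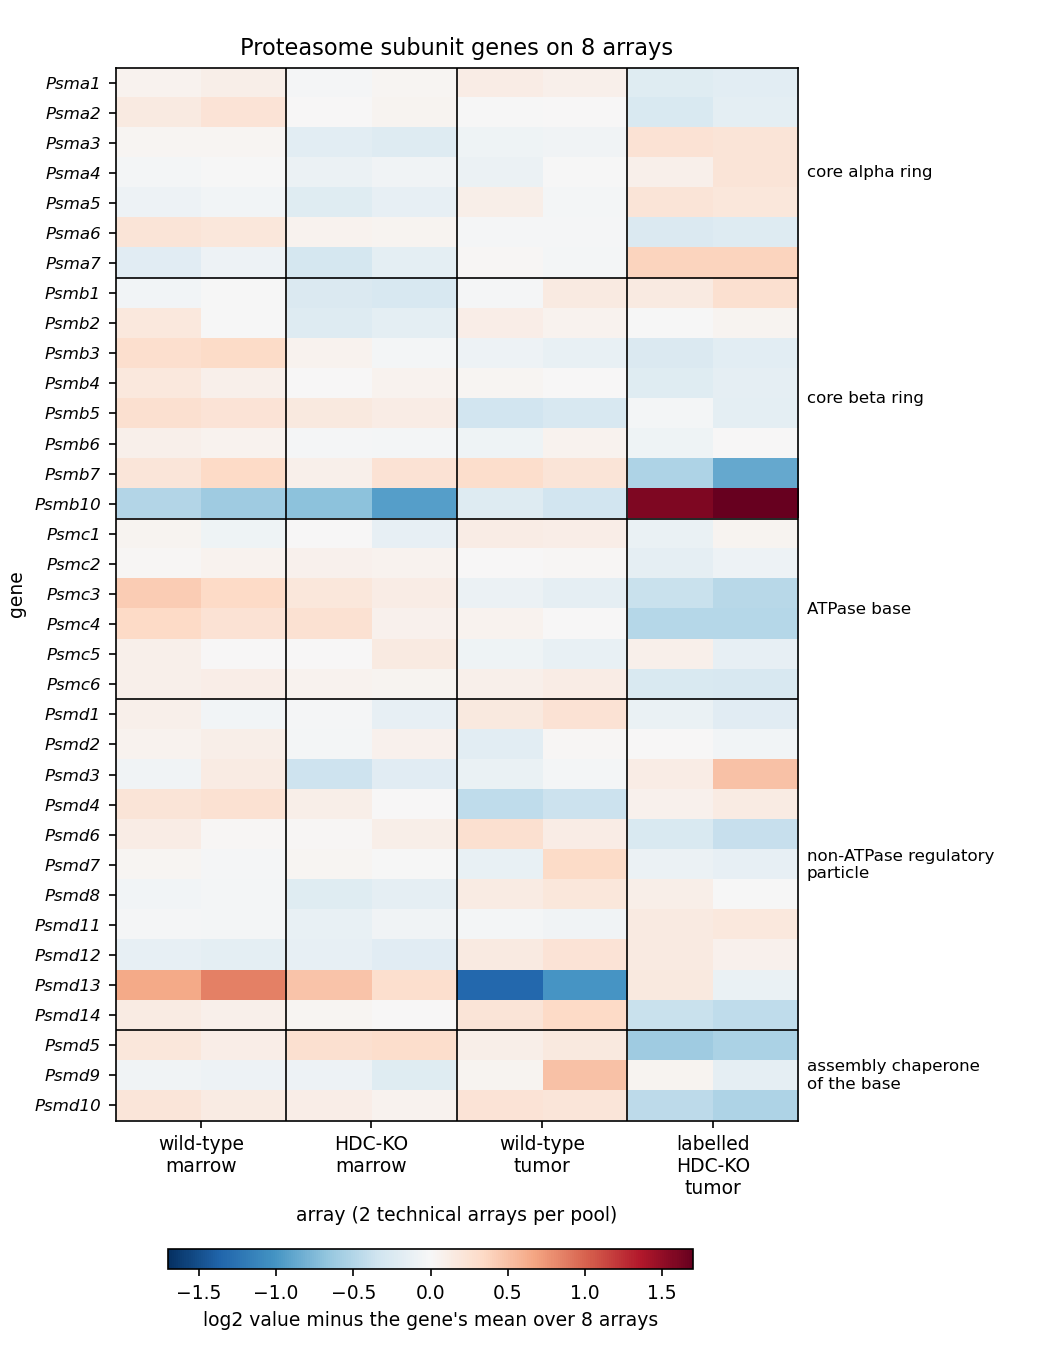
Each row is a tested subunit gene and each column 1 of the 8 arrays; colour is the log2 value minus that gene's mean over the 8 arrays. Most rows are pale throughout, while Psmb10 stands out as high in the pool labelled HDC-KO tumor and Psmd13 as low in the wild-type tumor pool.

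In marrow, loss of Hdc left the subunit genes within 0.36 on the log2 scale of their wild-type level. By limma, with Benjamini-Hochberg adjustment over all genes, 0 of 35 passed an adjusted p of 0.05 with at least a 2-fold difference (3.82% of all genes did, 1.8% higher and 2.02% lower), and 10 (28.6%) had an unadjusted p below 0.05, against 35.1% of all genes. By adjusted p alone 3 fell, Psmb3, Psmb2 and Psma3, and 0 rose (background 21.2%, 10.3% higher and 10.9% lower). The differences were small and of like sign: 31 of 35 were below 0, with a median of -0.10 against -0.00 for all genes; with each array centred on its median, 28 were below 0 and the median was -0.04, against 0.05 for all genes. The 3 calls were fragile, since the count was 0 without the first wild-type or the second HDC-KO marrow array and 1 without either of the others, although the differences themselves stayed between -0.37 and -0.19 whichever marrow array was left out.

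The 2 tumor pools differed more, and in both directions. The pool labelled HDC-KO exceeded wild type at least 2-fold for Psmb10 and Psmd13, 2 of 35 genes (background 26.0%, 15.5% higher and 10.5% lower). By adjusted p alone 9 rose and 14 fell, 23 of 35 or 65.7%, against a background of 72.8% (38.4% higher and 34.4% lower). With each array centred the split was 6 higher and 17 lower. The subunit genes had a median absolute difference of 0.22, against 0.49 for all genes, and a median of -0.12 against 0.03 (-0.18 against -0.03 with centring).

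Between wild-type marrow and wild-type tumor, 1 of 35 differed at least 2-fold, Psmd13, which was lower in tumor (background 16.4%, 11.6% higher and 4.81% lower). By adjusted p alone 3 rose and 8 fell, or 31.4%, against 56.5% of all genes (27.0% higher and 29.4% lower). Between the marrow and tumor pools labelled HDC-KO, 1 of 35 was higher at least 2-fold, Psmb10 (background 36.5%, 21.1% higher and 15.4% lower), and 11 rose and 15 fell by adjusted p alone, or 74.3% against 80.7% (39.5% higher and 41.2% lower). Centring each array moved the median of all genes by -0.13 in this comparison. These comparisons share pools with those above, so their calls are not independent.

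**Figure D2:**
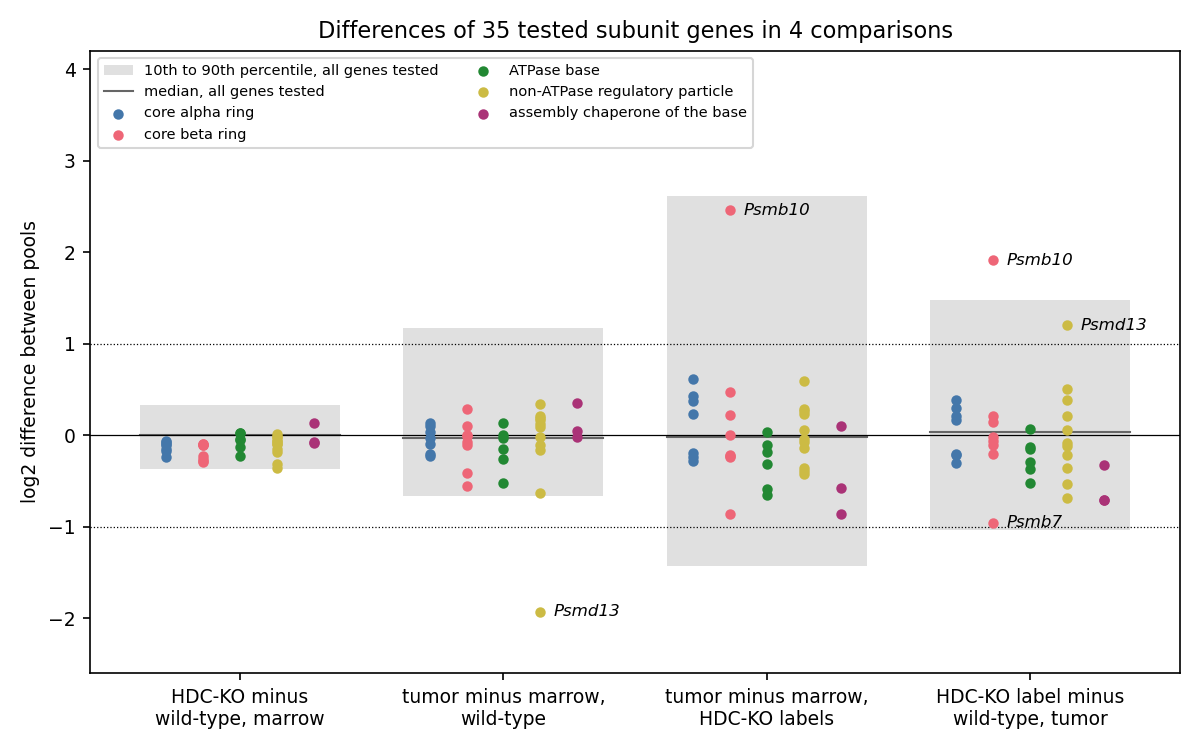
Each point is 1 of the 35 tested subunit genes, placed by comparison and coloured by role; the vertical axis is the log2 difference between 2 pool means. Grey bands run from the 10th to the 90th percentile of all 8174 genes tested and dotted lines mark a 2-fold difference. Psmb10, at 1.91 in tumor, and Psmd13, at -1.93 between the wild-type pools, lie outside the bands.

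The 3 catalytic positions of the core moved in different ways. At the position held by Psmb7, the trypsin-like subunit, or by its immune-type counterpart Psmb10, the 2 genes moved in opposite directions in the pool labelled HDC-KO tumor. Psmb10 read 8.47 and 8.37 in wild-type marrow, 8.27 and 8.04 in HDC-KO marrow, 8.75 and 8.65 in wild-type tumor, and 10.56 and 10.66 in the pool labelled HDC-KO tumor. That pool stood alone above the other 3, which lay between 8.04 and 8.75. It exceeded wild-type tumor by 1.91 ± 0.09 (log2, SE; 3.77-fold, adjusted p = 9.2e-06) and HDC-KO marrow by 2.46 ± 0.09 (5.50-fold, adjusted p = 1.4e-06).

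Psmb7 read 7.94 and 8.06 in wild-type marrow, 7.81 and 7.98 in HDC-KO marrow, 8.02 and 7.95 in wild-type tumor, and 7.21 and 6.86 in the pool labelled HDC-KO tumor. Here the pool labelled HDC-KO tumor was below all other arrays, and the other 3 pools overlapped. It fell by 0.96 ± 0.13 against wild-type tumor (1.94-fold lower, adjusted p = 0.00062). Its 2 arrays were farther apart than those of most genes, and the difference was -1.13 without the first of them, which passes the 2-fold line and brings the count in tumor to 3, and -0.78 without the second. Neither Psmb7 nor Psmb10 has another probe set above log2 5 that could be set beside these values.

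Psmb5, the chymotrypsin-like subunit, read 10.40 and 10.35 in wild-type marrow, 10.28 and 10.25 in HDC-KO marrow, 9.79 and 9.85 in wild-type tumor, and 10.09 and 9.96 in the pool labelled HDC-KO tumor. Both tumor pools were below both marrow pools. Wild-type tumor was lower than wild-type marrow by a log2 difference of -0.55 ± 0.06 (1.47-fold, adjusted p = 0.0006); the log2 difference between the tumor pools, 0.21 ± 0.06 (adjusted p = 0.025), was called insecurely. The call was lost at 0.14 without the first array of that pool, at 0.17 without the first wild-type tumor array and at 0.14 with each array centred, and also with no filter or with only the groups compared. Psmb6, the caspase-like subunit, ran from 9.74 to 9.90 over the 8 arrays and passed the adjusted p in no comparison; its log2 difference between the tumor pools was -0.02 ± 0.06 (adjusted p = 0.75). It had the narrowest span of pool means of the 35 genes, 0.10.

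The immune-type genes outside the chosen set were also highest in the pool labelled HDC-KO tumor. Psmb8 read 10.57 and 10.59 in wild-type marrow, 10.19 and 10.30 in HDC-KO marrow, 10.29 and 10.44 in wild-type tumor, and 11.46 and 11.43 in the pool labelled HDC-KO tumor, a rise over wild-type tumor of 1.08 ± 0.07 (2.12-fold, adjusted p = 2.7e-05). Psmb9 rose by 0.40 ± 0.06 (1.32-fold, adjusted p = 0.00079) in the same comparison. In marrow both fell in HDC-KO, Psmb8 by 0.34 ± 0.07 (adjusted p = 0.02) and Psmb9 by 0.31 ± 0.06 (adjusted p = 0.012), and Psmb10 differed by -0.27 ± 0.09 (adjusted p = 0.10). Most interferon-induced marker genes moved the same way in these comparisons. Of 6 tested, 6 rose between the tumor pools toward the one labelled HDC-KO, 5 of them at least 2-fold. The shares over all genes were 38.4% and 15.5%. In HDC-KO marrow against wild-type marrow 4 fell and 0 rose, beside 10.9% and 10.3% of all genes. Between the wild-type pools the markers were split, with 2 higher and 3 lower in tumor, beside 27.0% and 29.4% of all genes. There Psmb10 rose by 0.28, while Psmb8 and Psmb9 fell. The summed level of the interferon-induced markers on single arrays was 11.50 to 11.58 in wild-type marrow and 9.94 to 10.05 in HDC-KO marrow. It was 10.98 to 10.99 in wild-type tumor and 12.31 to 12.36 in the pool labelled HDC-KO tumor. The part of interferon signalling in the Psmb10 values was not tested.

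**Figure D3:**
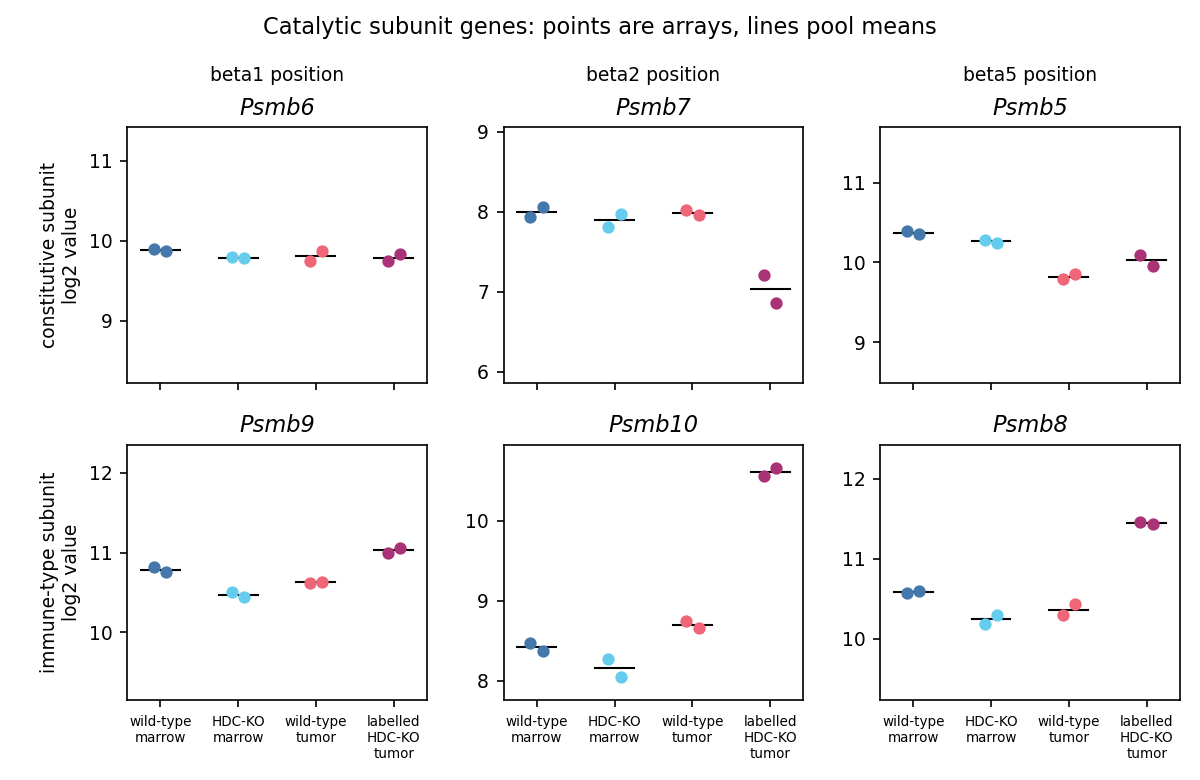
Columns are the catalytic positions of the core, with the constitutive gene above and its immune-type counterpart below; points are single arrays (log2 value) and lines pool means, and every panel spans the same number of log2 units. Psmb10 is high and Psmb7 low in the pool labelled HDC-KO tumor, Psmb8 is high there too, and Psmb6 is level across the pools.

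The start-proximal sequence of 4 of these genes is shown because it sets subunits that hold an antioxidant response element core, TGACNNNGC, beside the 2 genes that moved most, which hold none. The stretches are the 100 bases before the annotated start, from RefSeq on GRCm38.p6 and written along the gene's strand: Psmb5 at chr14:54617996-54618095 (minus strand), Psmb6 at chr11:70525257-70525356 (plus), Psmb10 at chr8:105938393-105938492 (minus) and Psmd13 at chr7:140882294-140882393 (plus). Capitals mark a TGACNNNGC match.
Psmb5: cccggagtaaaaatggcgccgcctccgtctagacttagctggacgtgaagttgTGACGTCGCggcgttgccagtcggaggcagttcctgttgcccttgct
Psmb6: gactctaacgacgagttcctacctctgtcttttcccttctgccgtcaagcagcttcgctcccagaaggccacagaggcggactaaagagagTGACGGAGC
Psmb10: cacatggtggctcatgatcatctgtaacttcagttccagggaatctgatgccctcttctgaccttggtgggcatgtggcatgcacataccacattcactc
Psmd13: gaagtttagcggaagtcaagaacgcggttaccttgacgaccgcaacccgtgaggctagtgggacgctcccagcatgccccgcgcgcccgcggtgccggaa

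The 250 bases before the start were searched on either strand. TGACNNNGC was found in 5 of the 30 subunit genes matched in the RefSeq promoter table (16.7%), namely Psmb5, Psmb6, Psmc6, Psmd9 and Psmd12. It was found in 10.2% of the 32851 promoters searched, which do not cover every chromosome. The box CCAAT was found in 12 of the 30 (40.0%, against 33.8%), and CCGGAAGT, an ETS family site, in 4 of the 30 (13.3%, against 2.88%), Psmc1, Psmc2, Psmd6 and Psmd12. Psmb10 and Psmd13 held none of these letters in that window. Subunit shares count genes with a match in any of their promoters, while the shares beside them count single promoters. Counted per promoter, the subunit genes gave 5, 12 and 5 of 32 for the 3 motifs in the order above. The 3 motifs were searched separately and may overlap. A match describes the letters and not binding.

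The remaining beta ring genes and the alpha ring moved by less than 1 log2 unit in every comparison. In marrow, Psmb3 read 12.01 and 12.05 in wild type and 11.78 and 11.69 in HDC-KO, a fall of 0.30 ± 0.06 (adjusted p = 0.016), and in wild-type tumor it was lower than in wild-type marrow by a log2 difference of -0.41 ± 0.06 (adjusted p = 0.0014). Its product is a structural subunit next to the catalytic ones. Psmb2, another structural subunit, had the weakest of the marrow calls, -0.28 ± 0.07 (adjusted p = 0.043), which was lost without any 1 of 7 of the 8 arrays, at values from -0.31 to -0.19. Psmb1 was higher in tumor than in marrow between the pools labelled HDC-KO by 0.47 ± 0.08 (adjusted p = 0.0014). Psmb4 was called lower in the pool labelled HDC-KO tumor, by -0.20 ± 0.06 against wild-type tumor and -0.21 ± 0.06 against HDC-KO marrow. Its other probe set went the other way, at 0.06 and 0.13, so these calls depend on the probe set.

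Of the 7 alpha ring genes tested, 3 rose and 3 fell in the pool labelled HDC-KO tumor against wild-type tumor (85.7%, against 72.8% of all genes). Psma7 read 10.71 and 10.81 in wild-type marrow, 10.60 and 10.73 in HDC-KO marrow, 10.92 and 10.87 in wild-type tumor, and 11.28 and 11.28 in the pool labelled HDC-KO tumor. The last pool stood above all others, by 0.39 ± 0.07 over wild-type tumor (adjusted p = 0.002) and by 0.61 ± 0.07 over HDC-KO marrow (1.53-fold, adjusted p = 0.00017). Psma3, one of the subunits that gate the entrance, read 11.89 on both wild-type marrow arrays, 11.67 and 11.64 in HDC-KO marrow, 11.78 and 11.80 in wild-type tumor, and 12.10 and 12.08 in the pool labelled HDC-KO tumor. It was thus lowest in HDC-KO marrow and highest in the tumor pool of the same label, rising by 0.30 ± 0.05 (adjusted p = 0.0013) in tumor and falling by 0.23 ± 0.05 (adjusted p = 0.017; -0.05 and not called with all its probe sets averaged) in marrow; the test of the difference between these effects gave 0.53 ± 0.07 (adjusted p = 0.00064). Psma4 was the third to rise, by 0.21 ± 0.07. Psma1, Psma2 and Psma6 fell by 0.31 ± 0.05, 0.21 ± 0.06 and 0.21 ± 0.05. Other probe sets that passed the filter did not all go the same way: the one of Psma1 gave 0.33 ± 0.14, and the 3 of Psma6 gave -0.27, -0.19 and 0.09. The last of these averaged under log2 5 in both tumor pools.

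The 6 ATPase genes, whose products form the ring that unfolds substrates, gave 0 that rose and 4 that fell in the pool labelled HDC-KO tumor against wild-type tumor: Psmc4, Psmc6, Psmc3 and, at the threshold, Psmc2. The share called, 66.7%, was near the 72.8% of all genes, of which 34.4% were lower. In marrow 0 of the 6 passed the adjusted p (21.2% of all genes did), and 1 had an unadjusted p below 0.05. Psmc4 read 11.68 and 11.58 in wild-type marrow, 11.59 and 11.41 in HDC-KO marrow, 11.40 and 11.35 in wild-type tumor, and 10.85 on both arrays of the pool labelled HDC-KO tumor. That pool was the lowest and did not overlap the others, falling by 0.52 ± 0.08 against wild-type tumor (1.44-fold, adjusted p = 0.00096). The other probe set of Psmc4 that passed the filter gave a smaller difference there, -0.23.

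Psmc3 read 10.31 and 10.22 in wild-type marrow, 10.07 and 10.00 in HDC-KO marrow, 9.77 and 9.72 in wild-type tumor, and 9.50 and 9.40 in the pool labelled HDC-KO tumor. Both tumor pools were below both marrow pools, and no 2 pools overlapped. Wild-type tumor fell below wild-type marrow by 0.52 ± 0.06 (1.43-fold, adjusted p = 0.00082). Psmc6 fell by 0.37 ± 0.05 between the tumor pools (adjusted p = 0.00062), and its 2 other probe sets that passed the filter were lower as well, at -0.62 and -1.10. Psmc1 and Psmc5 passed the adjusted p in no comparison.

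Among the other subunits of the regulatory particle and its chaperones, 14 genes in all, 4 rose and 5 fell in the pool labelled HDC-KO tumor against wild-type tumor (64.3%, against 72.8% of all genes). None passed the adjusted p in marrow, 0 of 14 against 21.2% of all genes, where 2 had an unadjusted p below 0.05. Psmd13, a structural subunit of the lid, gave the widest change. It read 7.93 and 8.14 in wild-type marrow, 7.77 and 7.57 in HDC-KO marrow, 5.94 and 6.28 in wild-type tumor, and 7.45 and 7.17 in the pool labelled HDC-KO tumor. The wild-type tumor pool was low on both arrays, while the other 3 pools lay between 7.17 and 8.14. It was 3.80-fold lower than wild-type marrow (log2 difference -1.93 ± 0.16, adjusted p = 0.00014), and the pool labelled HDC-KO tumor exceeded it 2.30-fold (1.20 ± 0.16, adjusted p = 0.00062).

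The second probe set of Psmd13 above log2 5, one that may also read related transcripts, had pool means of 6.66, 6.45, 5.36 and 6.11 in the same order. It too was lowest in wild-type tumor, with smaller differences of -1.30 between the wild-type pools and 0.74 between the tumor pools. When all probe sets of a gene were averaged, Psmd13 fell under the filter and was not tested, so the 2-fold count became 1 in tumor and 0 between the wild-type pools.

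Psmd4, a receptor for ubiquitin chains, was likewise lowest in wild-type tumor, with smaller differences. It read 10.51 and 10.55 in wild-type marrow, 10.39 and 10.30 in HDC-KO marrow, 9.86 and 9.93 in wild-type tumor, and 10.37 and 10.44 in the pool labelled HDC-KO tumor. Wild-type tumor again was below the other 3 pools, by a log2 difference of -0.63 ± 0.06 from wild-type marrow (1.55-fold, adjusted p = 0.00027), and the pool labelled HDC-KO tumor exceeded it by 0.51 ± 0.06 (adjusted p = 0.0004). The other probe set of Psmd4 gave -0.62 and 0.30.

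**Figure D4:**
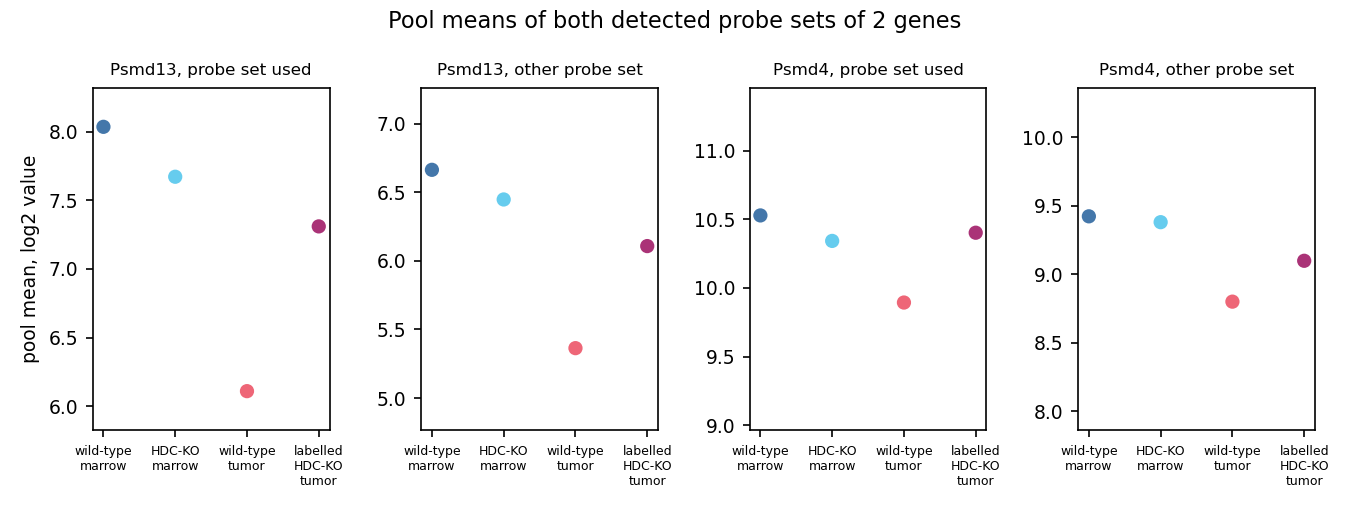
Pool means (log2 value) of the 2 probe sets above log2 5 for Psmd13 and for Psmd4, the one used and the other; each panel spans the same number of log2 units. In all 4 panels the wild-type tumor pool is the lowest.

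Psmd14, the enzyme that cuts ubiquitin off the substrate, read 11.22 and 11.16 in wild-type marrow, 11.11 and 11.08 in HDC-KO marrow, 11.29 and 11.41 in wild-type tumor, and 10.70 and 10.64 in the pool labelled HDC-KO tumor. The last pool was below all other arrays, by 1.61-fold against wild-type tumor (-0.68 ± 0.06, adjusted p = 0.00011). Psmd6, a lid subunit, fell by 0.53 ± 0.08 in that comparison (1.44-fold, adjusted p = 0.0013) and the scaffold subunit Psmd1 by 0.35 ± 0.08. The other probe set of Psmd6 above log2 5 gave a smaller difference there, -0.24. The lid subunit Psmd11 rose by 0.21 ± 0.05 there, but its 3 other probe sets above log2 5 gave differences of 0.10, 0.10 and -0.29. Psmd3, another lid subunit, had the least secure call, 0.38 ± 0.14 (adjusted p = 0.043): it was lost without any 1 array except the first of the pool labelled HDC-KO tumor, and the difference was 0.20 without the second.

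Psmd12, of the lid, was higher in tumor than in marrow in both comparisons, by 0.34 ± 0.06 in wild type (adjusted p = 0.0029) and by 0.28 ± 0.06 in the pools labelled HDC-KO (adjusted p = 0.0038). Psmd8, also of the lid, gave 0.20 ± 0.06 and 0.23 ± 0.06; its wild-type call was lost without any 1 of the 4 arrays compared, at values from 0.18 to 0.23. The scaffold subunit Psmd2 and the lid subunit Psmd7 passed the adjusted p in no comparison.

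Of the 3 chaperones of the base, Psmd5 and Psmd10 were low in the pool labelled HDC-KO tumor. Psmd5 read 8.53 and 8.45 in wild-type marrow, 8.61 and 8.64 in HDC-KO marrow, 8.44 and 8.50 in wild-type tumor, and 7.74 and 7.80 in the pool labelled HDC-KO tumor. Psmd10, also called gankyrin, read 9.63 and 9.56, 9.53 and 9.48, 9.65 and 9.63, and 8.97 and 8.89 in the same order. In both genes the first 3 pools lay close together and the last did not overlap them, with a fall against wild-type tumor of 0.70 ± 0.06 (1.63-fold, adjusted p = 6.7e-05) for each. Psmd9 passed the adjusted p in no comparison; its difference between the tumor pools was -0.32 ± 0.15.

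The effect of the HDC-KO label differed between tumor and marrow in 19 of the 35 genes by adjusted p, 11 with the tumor effect higher and 8 with it lower (54.3%, background 65.8%, of which 34.8% higher and 31.0% lower); with each array centred the split was 6 and 10. At least 2-fold, 2 of 35 differed, Psmb10 by 2.18 ± 0.13 (adjusted p = 3.5e-05) and Psmd13 by 1.56 ± 0.22 (adjusted p = 0.0012), against 28.5% of all genes (16.8% higher and 11.7% lower). Psmb7 by -0.85 ± 0.18, Psmd5 by -0.84 ± 0.08 and Psmd10 by -0.62 ± 0.08 headed those lower in tumor. Psmd4, at 0.69 ± 0.09, headed the smaller positive differences together with Psmd3, at 0.70 ± 0.19, whose call was lost at 0.60 without the second wild-type marrow array, at 0.62 without the first HDC-KO marrow array and at 0.66 without the first wild-type tumor array. Centring moved the median of all genes by -0.12 here.

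Outside the subunit set, the difference between the tumor pools reached 2-fold in Psmb8, Psme3 and Mafg among the pathway genes tested; the counts of these lists between the tumor pools stand beside 38.4% higher and 34.4% lower over all genes. Psme3, the nuclear activator that opens the core without ATP, read 6.37 and 6.67 in wild-type marrow, 6.64 and 6.56 in HDC-KO marrow, 6.46 and 6.37 in wild-type tumor, and 4.91 and 5.49 in the pool labelled HDC-KO tumor. It was low in the last pool, 2.32-fold below wild-type tumor (-1.21 ± 0.19, adjusted p = 0.0015). Psme1, a subunit of the interferon-induced activator, rose by 0.47 ± 0.07 there (adjusted p = 0.0012). The 4 activator and inhibitor genes tested gave 2 that rose and 1 that fell, and in marrow 0 passed the adjusted p and 1 had an unadjusted p below 0.05.

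Of 4 core assembly chaperones tested, 1 rose and 1 fell between the tumor pools. Pomp, which assembles the core and is needed for its immune-type form, read 10.84 and 10.91 in wild-type marrow, 10.60 and 10.54 in HDC-KO marrow, 10.94 and 10.97 in wild-type tumor, and 11.41 and 11.43 in the pool labelled HDC-KO tumor. Its order of pools was that of Psma3 at the extremes, low in HDC-KO marrow and high in the tumor pool of that label. It rose by 0.47 ± 0.05 in tumor (adjusted p = 0.00034) and fell by 0.31 ± 0.05 in marrow (adjusted p = 0.011). Psmg1, which starts alpha ring assembly, fell by 0.33 ± 0.08 in tumor (adjusted p = 0.012) and was 1.75-fold lower in wild-type tumor than in wild-type marrow (adjusted p = 0.00038).

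Among 11 ubiquitin receptors and proteasome-bound enzymes tested, 3 rose and 3 fell between the tumor pools. Uchl5, a deubiquitinase docked on the regulatory particle, fell by 0.68 ± 0.05 (1.61-fold, adjusted p = 3.3e-05), and Sem1, the smallest lid component, fell by 0.62 ± 0.05 (adjusted p = 7.1e-05). Nploc4, the cofactor with which the unfoldase Vcp extracts ubiquitinated proteins, fell by 0.84 ± 0.09 (1.79-fold, adjusted p = 0.0002), one of 3 that fell and 1 that rose among the 4 genes of E1 enzymes and unfoldase. Zfand2a, an arsenite-inducible partner of the proteasome, was 2.85-fold higher in wild-type tumor than in wild-type marrow (adjusted p = 0.001).

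Of 7 regulators of the subunit genes, 3 rose and 1 fell between the tumor pools. Nfe2l1 read between 5.76 and 6.37 over the 8 arrays and passed the adjusted p in no comparison, and Nfe2l2 differed by -0.13 ± 0.06 between the tumor pools (adjusted p = 0.069). Their small Maf partners moved in different directions. Mafg read 11.38 and 11.35 in wild-type marrow, 11.63 and 11.59 in HDC-KO marrow, 10.80 and 10.84 in wild-type tumor, and 9.62 and 9.63 in the pool labelled HDC-KO tumor, where it was 2.30-fold below wild-type tumor (-1.20 ± 0.05, adjusted p = 4.3e-06). Mafk rose by 0.85 ± 0.10 in the same comparison (1.80-fold, adjusted p = 0.00031). Maff was under log2 5 in both marrow pools and averaged 8.02 in wild-type tumor, which makes it at least 8.14-fold higher there than log2 5.

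**Figure D5:**
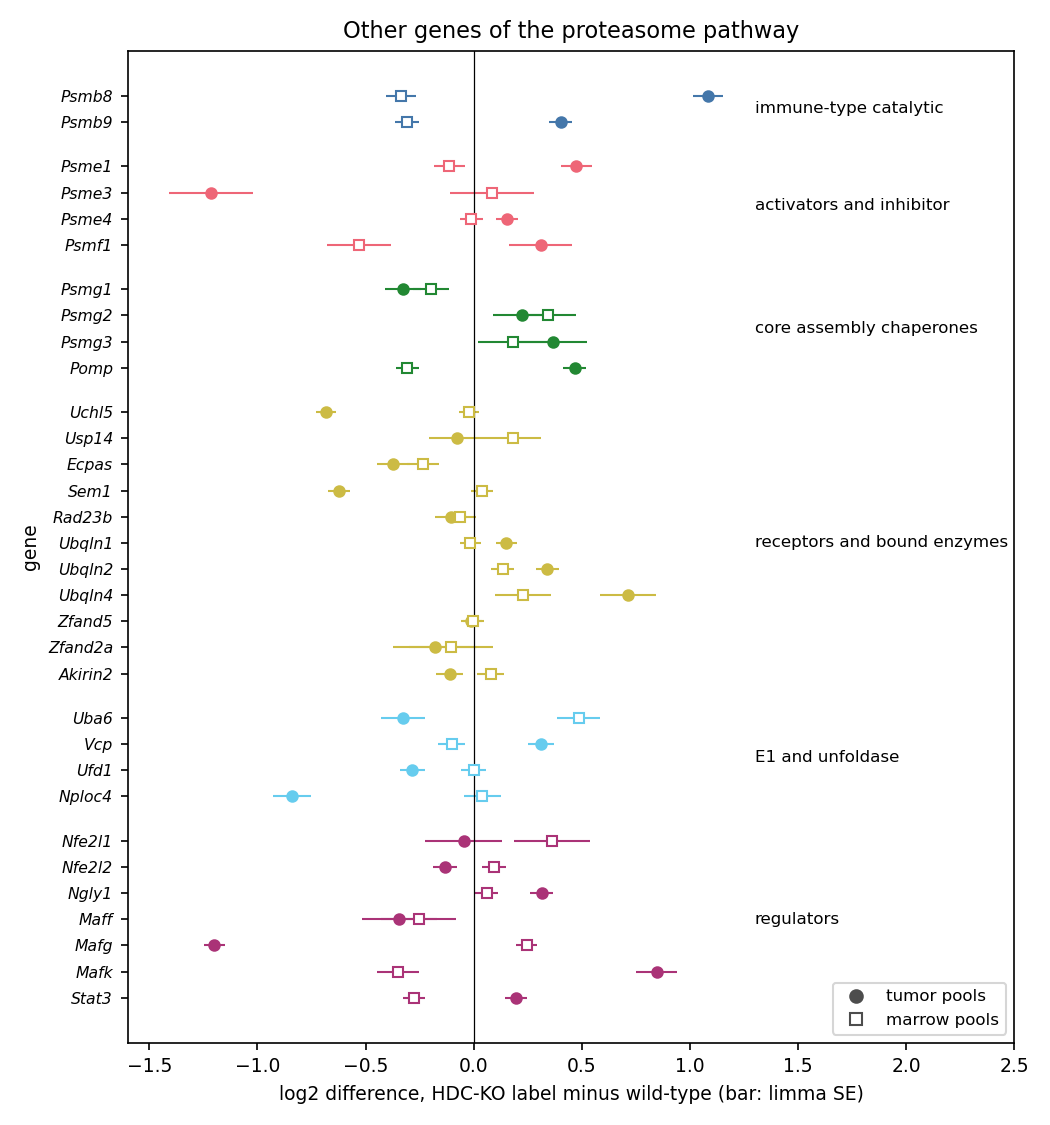
Log2 difference between the pool labelled HDC-KO and the wild-type pool for genes of the pathway outside the subunit set, in tumor (filled circles) and marrow (open squares), with limma standard errors. Psmb8, at 1.08, and Psme3, at -1.21, are the outermost tumor values of the catalytic and activator groups.

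Gene families of similarly ubiquitous complexes gave a point of comparison. In marrow they were tilted the same way as the proteasome genes: 36 of 43 ribosomal protein genes and 58 of 70 respiratory chain subunit genes were below 0 in HDC-KO against wild type, with medians of -0.13 and -0.09 before any centring. Of the 43 cytosolic ribosomal protein genes tested, 35 rose and 1 fell between the tumor pools by adjusted p (81.4% and 2.33%, against 38.4% and 34.4% of all genes). At 2-fold there were 0 (26.0% of all genes), and the median difference was 0.26. An unadjusted p below 0.05 was found in 36 (83.7%, against 74.8% of all genes). For the 70 respiratory chain subunit genes the counts by adjusted p were 25 and 18 (35.7% and 25.7%), 0 of them at 2-fold, and the median difference 0.07. The subunit genes of the proteasome, at 9 and 14, had a median of -0.12. Median absolute differences were 0.22 for the proteasome genes, 0.22 for the respiratory chain genes and 0.28 for the ribosomal protein genes. Over all genes the value was 0.49. These are counts and medians of lists, and the difference between the lists was not tested.

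Markers of other cells moved in tumor and in marrow. Their counts between the tumor pools stand beside 38.4% higher and 34.4% lower over all genes. Those in marrow stand beside 10.3% higher and 10.9% lower, or 1.8% and 2.02% at 2-fold. The 10 epithelial markers were all under log2 5 in both marrow pools and all above it in both tumor pools; their summed level on single arrays was 12.03 to 12.05 in wild-type tumor and 14.31 to 14.37 in the pool labelled HDC-KO tumor, where 10 of 10 rose over wild-type tumor. The 8 macrophage markers had a summed level of 13.68 to 13.72 in wild-type tumor and 14.70 to 14.78 in the pool labelled HDC-KO tumor, against 11.27 to 11.60 over the marrow arrays, and 8 of 8 rose between the tumor pools; C1qa, C1qc, Mertk and Cx3cr1 were under log2 5 in marrow. The 9 proliferation genes went the other way, at 14.24 to 14.26 in wild-type tumor and 11.69 to 11.74 in the pool labelled HDC-KO tumor, and 9 of 9 were lower there. All 3 tested genes of B and plasma cells rose between the tumor pools as well, while of 4 T and NK cell genes 2 rose and 1 fell, and the 5 stromal genes were under log2 5 everywhere. In marrow, HDC-KO against wild type, the summed level of T and NK cell markers went from 9.55 to 10.02 up to 12.55 to 12.58. Cd3d, at 7.63 and 12.48, made up most of that rise. Of the 4 tested, 3 differed at least 2-fold, 2 higher and 1 lower. Nkg7 was the lower one, at 9.37 and 8.31. Gzma, the other higher one, was under log2 5 in both marrow pools (3.36 and 4.38), as were Cd3e and Cd3g. The summed level of B and plasma cell markers went from 9.04 to 9.20 down to 7.68 to 7.75, with Jchain at 8.90 and 5.09. Of these genes 3 of 3 passed the adjusted p, 2 of them higher. Of 8 macrophage markers 4 rose and 1 fell, 3 of them at least 2-fold, and of 10 epithelial markers 0 rose and 2 fell. These marrow counts include genes under log2 5 in both marrow pools, among them all the epithelial markers and Mertk (3.14 and 4.22). Such genes passed the filter through tumor arrays, so their marrow differences are not read as changes. The part of these cells in the subunit differences, in tumor or marrow, was not tested.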

How the data were processed

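RNA of CD11b+Gr-1+ cells was labelled with biotin by the Affymetrix protocol, per the labels, and hybridised to single-colour arrays, 4 pools with 2 technical arrays each. The deposited log2 intensity values had been summarised by the authors with GCRMA, per the submitters' processing notes (version not given in the sources here). They were used unchanged. Of 45101 probe sets, 34958 carry 1 gene symbol, 932 several and 9211 none; those with 1 symbol gave 18194 genes, each read from its highest-mean probe set. Genes with at least 2 arrays at log2 5 (8174) were fitted in limma 3.58.1 (R 4.3.3; lmFit, eBayes, all 8 arrays, 4 residual degrees of freedom), with Benjamini-Hochberg adjustment over all of them, and the code was tested on simulated data. A difference is called rising or falling at an adjusted p of 0.05, and counted as 2-fold when the log2 difference also reaches 1. The precision is limited by the number of arrays.

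The subunit genes and the gene lists were chosen with earlier results of these data known. Named were the catalytic genes, per comparison the 6 highest and 6 lowest differences among subunit genes past the adjusted p, and up to 3 genes of each other list; other subunit genes were named after their values were seen. Alternatives covered the filter, a floor at log2 5, quantile normalization, median centring, averaging probe sets, only the groups compared, limma's trend and robust options, a replicate block and leaving out each array. Probe sets ending in _x_at or _s_at, and the pool labelled HDC-KO tumor, were left out in 2 further alternatives chosen after seeing the data.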

Additional observations from a re-analysis of the deposited data

Results flagged for a closer look

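The effect of the HDC-KO label differed between tumor and marrow at least 2-fold, by the interaction test in limma, for 2 of the 35 subunit genes tested. For Psmb10 the tumor effect exceeded the marrow effect by 2.18 on the log2 scale (adjusted p = 3.5e-05). For Psmd13 it did so by 1.56 (adjusted p = 0.0012). Both rest on the label of the tumor pool, in which Hdc was near the wild-type level.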

How the results depend on the processing

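The 2-fold counts of subunit genes were small, and some of them changed under the alternatives run. With probe sets averaged, which leaves 32 subunit genes tested and Psmd13 untested, the count was 1 between the tumor pools, 0 between the wild-type pools and 1 for the difference of effects. It was 2 between the pools labelled HDC-KO without the first tumor array of that label, where Psmb7 joined Psmb10, and otherwise 1 on leaving out any array; counts on leaving out an array ran from 2 to 3 between the tumor pools and for the difference of effects. With quantile normalization or median centring Psmb7 made the count between the tumor pools 3, at differences of -1.02 in both.

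Counts by adjusted p alone changed as well. In marrow the count of 3 became 0 with no filter, 5 with the filter at log2 7, 5 with values raised to log2 5 and 9 with limma's trend and robust options, and ran from 0 to 2 on leaving out an array. Between the wild-type pools the count of 11 became 7 with no filter. The cause was not tested, except that no filter enlarges the adjustment to all genes.

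Reversals among the differences recomputed were those near 0 of Psmb6 and Psmb7. Psmb6 between the tumor pools was 0.0161 with quantile normalization and ran from -0.0902 to 0.0429 on leaving out an array. Between the pools labelled HDC-KO it was 0.0403 with quantile normalization and -0.0474 to 0.0406 on leaving out an array, and its difference of effects was -0.0401 with median centring. Psmb7 between the wild-type pools was 0.0346 with quantile normalization and -0.0743 to 0.0498 on leaving out an array.

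Same-numbered arrays share only a number, since their deviations correlated at -0.015 to 0.058; with the number as a replicate block the counts by adjusted p were 3, 22, 11, 26 and 18 against 3, 23, 11, 26 and 19. In marrow 2 of the 3 calls were shared, with Psmb2 lost and Psmc3 gained under the block; Psmc2 was lost between the tumor pools and Psma5 for the difference of effects. Values near log2 5 limit what can be measured.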
